A study of Mus musculus with 14 samples.

Results

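Mature fat cells were followed in mouse hind limb muscle through 10 genes that they express: Lep, Adipoq, Retn and Cfd, which encode secreted adipokines, Plin1, Plin4 and Cidec, which encode proteins of the lipid droplet, Fabp4 and Scd1, which handle fatty acids, and Car3, a carbonic anhydrase. They were taken by gene symbol from the 49585 genes of each of the 2 deposited expression tables, and all 10 were found in both. RNA-seq had been done on total RNA from whole hind limb skeletal muscle of wild-type (WT) mice and of mice lacking Myf6 (KO), a myogenic regulatory factor of muscle fibres. Each genotype was sampled uninjured and injured, with 3 libraries in each of the 4 groups. In the descriptions all uninjured libraries carry the letter L and all injured ones R. Injury and whatever these letters mark cannot be told apart. The labels give neither the knockout allele nor the age of the mice, the kind of injury, or the time after it. The sample numbers in the descriptions differ between WT and KO, so genotype and any litter or batch cannot be told apart. Nothing in the labels says which leg muscles were taken or whether surrounding fat was removed.

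White fat cells store triglyceride in 1 large droplet, and within skeletal muscle they lie between the fibres, where they arise from fibro-adipogenic progenitors. The transcription factors Pparg and Cebpa switch on their genes. Leptin acts on the brain as a signal of fat stores, adiponectin acts on muscle and liver metabolism, resistin is linked in mice to insulin action, and adipsin (Cfd, complement factor D) is a protease of the alternative complement pathway. Perilipin 1 guards the droplet from lipases, Cidec lets droplets fuse and grow, perilipin 4 also coats droplets in muscle fibres, Fabp4 carries fatty acids in the cytoplasm of fat cells and also of capillary endothelium, and Scd1 makes monounsaturated fatty acids. Car3 is made in fat cells and in muscle fibres, above all slow ones, so its RNA has more than 1 source in this tissue.

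RefSeq (GRCm38.p6) promoter windows matched 7 of the 10 genes. The 250 bases before the annotated start are printed for 3 of them, Lep and Cidec because their WT and KO libraries did not overlap in uninjured muscle, and Adipoq because a Myf6 binding peak lies inside the gene. Capitals mark matches to the motifs searched on both strands: the C/EBP palindrome TTGCGCAA, the E-box CAGCTG, a form that myogenic factors can bind, and the CCAAT box.
Lep, chr6:29059971-29060220, plus strand: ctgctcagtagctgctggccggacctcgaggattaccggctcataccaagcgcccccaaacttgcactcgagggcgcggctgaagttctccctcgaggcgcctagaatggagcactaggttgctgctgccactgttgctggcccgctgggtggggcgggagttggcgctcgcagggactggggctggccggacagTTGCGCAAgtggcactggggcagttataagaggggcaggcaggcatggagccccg
Adipoq, chr16:23146286-23146535, plus strand: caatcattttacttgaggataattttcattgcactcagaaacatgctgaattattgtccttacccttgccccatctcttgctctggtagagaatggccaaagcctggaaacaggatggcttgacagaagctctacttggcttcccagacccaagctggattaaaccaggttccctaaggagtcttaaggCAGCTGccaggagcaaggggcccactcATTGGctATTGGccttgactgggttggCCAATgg
Cidec, chr6:113435761-113436010, minus strand: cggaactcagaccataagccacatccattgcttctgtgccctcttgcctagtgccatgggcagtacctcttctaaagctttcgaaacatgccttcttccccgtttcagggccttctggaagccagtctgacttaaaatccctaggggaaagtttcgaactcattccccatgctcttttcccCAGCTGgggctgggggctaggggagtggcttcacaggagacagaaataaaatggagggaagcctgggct
The C/EBP palindrome lies 55 to 48 bases before the Lep start, and 0.164% of all 32851 promoter windows (searched over the 250 bases before a start) hold it. The CAGCTG E-box lies 61 to 56 bases before the Adipoq start and 69 to 64 bases before the Cidec start, and 13.0% of the windows hold it. Adipoq also has 3 CCAAT boxes, which 33.8% of the windows have at least once. Plin4, which also has a Myf6 peak inside the gene, has a window not printed here, with a CCAAT box and no CAGCTG. A further Cidec window, also not printed, overlaps the gene and holds none of the motifs. Neither TATAAA (12.4% of the windows) nor a perfect PPAR direct repeat (0.0335%) matched in the windows of these genes. A match describes letters only.

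Values are in RPM, reads per 1000000 reads assigned to genes. Whole reads could be recovered from them, with totals of 1880087 to 49392472 per library, and 3 reads corresponded to 0.0607 to 1.60 RPM. Uninjured WT replicate 2 was the shallowest library. The targeted gene Myf6 was at 25.0 to 121 RPM in the WT and 1.86 to 3.46 RPM in the KO libraries. Muscle RNA dominated, with 8 fast fibre genes summing to 139434 to 234530 RPM. Mitochondrial genes took 13.8 to 22.3% of reads in uninjured WT and 3.63 to 15.3% in uninjured KO. The nuclear RNA Malat1 was at 213 to 284 against 81.1 to 106 RPM, without overlap, as for 15.5% of the genes tested below with KO lower. In injured muscle KO replicate 2 stood apart from its group, with 23.2% mitochondrial reads and 288 RPM of Malat1 against 4.30 to 4.95% and 73.4 to 80.4 RPM in the other KO libraries. The part of these differences in the results below was not tested.

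In uninjured muscle most of the fat cell genes had higher estimates in KO, while none passed the test over all genes. By group means the KO level was 8.16 times that of WT for leptin, 3.13 times for Plin1, 3.08 times for Scd1, 2.78 times for Cidec and 2.49 times for Adipoq. Resistin, adipsin, Plin4 and Fabp4 differed by less than the spread between libraries, and Car3 had the opposite sign. Leaving out single libraries gave changes of 1.84 to 2.40 for Lep, 1.25 to 2.46 for Plin1, 1.20 to 2.56 for Scd1, 1.07 to 2.03 for Cidec and 1.03 to 1.98 for Adipoq in log2(RPM + 1). In whole tissue, more fat cells, more RNA per fat cell and fat left around the muscle at dissection cannot be told apart, and none was tested. Because no fat cell gene passed the test over all genes, the estimates may also reflect only the spread between libraries.

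The test of each comparison was limma on log2(RPM + 1), a scale that understates the change of low genes, restricted to genes that reached 1 RPM in 3 or more libraries, with Benjamini-Hochberg adjustment and a threshold of 0.05. All 10 genes passed the filter. Of the 12460 genes tested in uninjured muscle, 0.281% were called in either direction, 0.128% higher and 0.152% lower, and of the 10 fat cell genes 0. With an unadjusted p under 0.05 there were 4 higher (Lep, Adipoq, Plin1, Cidec) and 1 lower (Car3), against 3.53% and 10.7% of all genes. Estimates were above 0 for 9 of the 10, against 36.8% of all genes, and their median was 0.94, against -0.18 for all genes tested. The 10 genes were chosen with earlier results of these data known, and most of them vary together. Their shares and medians, here and below, are therefore descriptions and not tests. Without KO replicate 1 the median was 0.56, and without each other library in turn it lay between 0.73 and 1.30. DESeq2 on the recovered reads called 5 of the 10, Lep, Adipoq, Plin1 and Cidec higher and Car3 lower, where it called 2.74% of all genes higher and 2.58% lower. edgeR's quasi-likelihood test called Lep alone, where it called 0.241% of genes higher. The authors' deposited table has q-values under 0.05 for Lep and Cidec, both higher, as it has for 0.341% of its 49585 genes.

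Lep (chromosome 6, 29060221 to 29073876 on GRCm38.p6) was at 0.869, 1.60 and 1.19 RPM in the WT libraries replicates 1, 2 and 3 and at 6.89, 6.85 and 16.1 RPM in KO. Every KO library lay above every WT library, as for 6.2% of all genes tested. The WT values rested on 3 to 36 reads and that of replicate 2 was at its floor of 1.60 RPM. The WT mean was 1.22 ± 0.364 RPM (SD, n = 3) and the KO mean 9.93 ± 5.31 RPM (SD, n = 3), and the change was 2.21 (SE 0.42, limma adjusted p = 0.0689). Over 16 other settings the adjusted p of Lep ranged from 3.86e-07 to 0.484, and it passed 0.05 in 7 of them.

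Adipoq (chromosome 16, 23146536 to 23157968), which encodes adiponectin, was at 21.2, 18.1 and 70.9 RPM in the WT libraries and at 132, 37.3 and 105 RPM in KO. The groups overlapped, because WT replicate 3 was above KO replicate 2. Its change was 1.38 (SE 0.59, limma adjusted p = 0.332). Retn, the resistin gene (chromosome 8, 3655770 to 3659818), was at 20.1, 20.7 and 30.2 RPM in the WT libraries and 48.8, 18.4 and 23.4 RPM in KO, with KO replicate 1 alone above the WT range and KO replicate 2 below it. Cfd (chromosome 10, 79890853 to 79892655) was at 338, 320.2 and 416 RPM in the WT libraries and 900.1, 425 and 334 RPM in KO, and again replicate 1 was the high one. The changes of Retn and Cfd were 0.24 (SE 0.39, limma adjusted p = 0.829) and 0.50 (SE 0.37, limma adjusted p = 0.578).

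Of the lipid droplet genes, Cidec (chromosome 6, 113424634 to 113435760) was at 28.4, 11.2 and 45.2 RPM in the WT libraries and 91.4, 53.6 and 90.9 RPM in KO. It was the other gene whose groups did not overlap, with a change of 1.60 (SE 0.48, limma adjusted p = 0.192) and adjusted p-values of 0.00101 to 0.653 over 17 other settings. Plin1 (chromosome 7, 79721164 to 79732904) was at 6.05, 9.57 and 36.4 RPM in the WT libraries and 62.4, 19.4 and 81.3 RPM in KO. Here too WT replicate 3 exceeded KO replicate 2, and the change was 1.75 (SE 0.68, limma adjusted p = 0.289). Plin4 (chromosome 17, 56100587 to 56109948) was at 114, 94.7 and 111 RPM in the WT libraries and 129, 67.6 and 163 RPM in KO. The KO libraries of Plin4 surrounded the WT libraries, and its change of 0.08 (SE 0.34, limma adjusted p = 0.946) became -0.08 when values were scaled to reads outside mitochondrial genes.

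Scd1 (chromosome 19, 44394450 to 44407709), the desaturase, had the widest range of the 10 within each uninjured group. It was at 197, 268 and 1198 RPM in uninjured WT and at 2202, 394 and 2529 RPM in KO, a change of 1.70 (SE 0.81, limma adjusted p = 0.381). Fabp4 (chromosome 3, 10204342 to 10208616) was at 1211, 839 and 1439 RPM in the WT libraries and at 1994, 1363 and 1073 RPM in KO, with a change of 0.33 (SE 0.32, limma adjusted p = 0.691). For both genes the WT and KO ranges overlapped.

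Car3 (chromosome 3, 14863538 to 14872381) went the other way. It was at 5452, 2081 and 4861 RPM in uninjured WT and 1687, 930.4 and 2636 RPM in KO, so KO replicate 3 was above WT replicate 2. The group means were 4131 ± 1800 RPM (SD, n = 3) and 1751 ± 855 RPM (SD, n = 3), and the change was -1.24 (SE 0.47, limma adjusted p = 0.276).

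**Figure D1:**
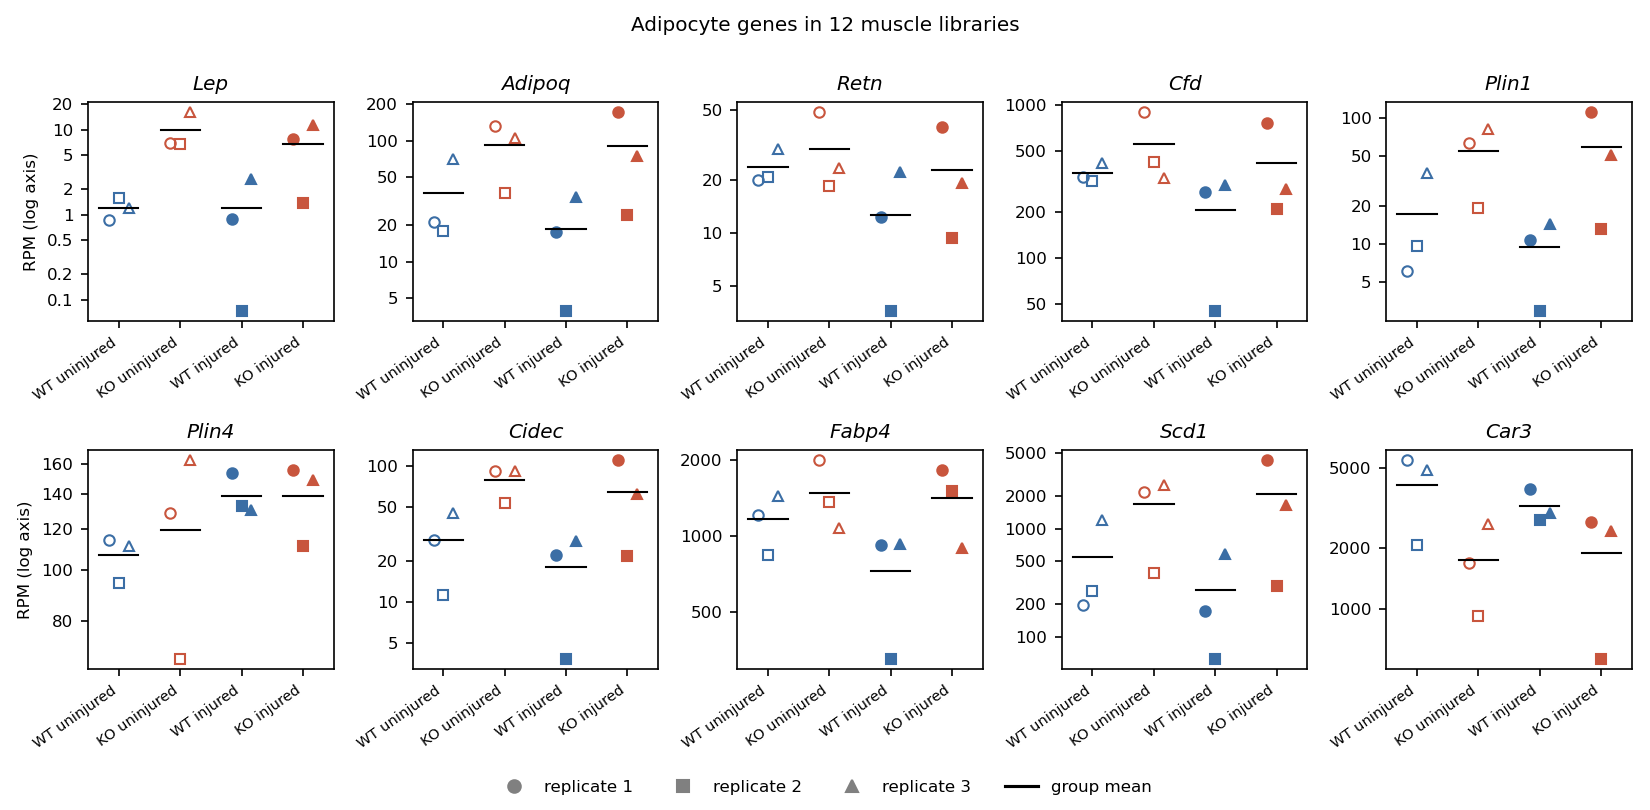
Levels of the 10 genes in each library, in RPM on log axes, with 1 point per library (symbols give the replicate number, blue WT, red KO, open uninjured, filled injured) and a line at the group mean of 3. Replicate 2 of injured WT is the lowest point in 8 of the 10 panels, and Lep and Cidec separate WT from KO in uninjured muscle.

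In injured muscle 8 of the 10 genes had higher estimates in KO, against 52% of all genes, Plin4 was at -0.01 and Car3 was again lower. By group means the KO level was 7.71 times that of WT for Scd1, 6.18 times for Plin1, 5.74 times for Lep, 4.82 times for Adipoq and 3.59 times for Cidec. None passed the test: limma called 0 of the 10, against 0.269% of 12625 genes (0.174% higher, 0.095% lower). With an unadjusted p under 0.05 there were 4 higher (Lep, Adipoq, Plin1, Scd1) and 0 lower, against 5.06% and 5.26% of all genes, and the median of the 10 was 1.46 against 0.01 for all genes. DESeq2 called Plin1 and Scd1 higher, where it called 1.66% of genes higher, and edgeR called 0, where it called 0.261%. In the authors' deposited values Plin1 alone of the 10 had a q-value under 0.05 (q = 0.0430, higher in KO, as for 0.25% of all genes in the authors' deposited table).

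One library weighed on this result. Without KO replicate 2, limma called 5 of the 10 higher, Adipoq, Cidec, Plin1, Scd1 and Lep, while 9.49% of all genes were then called higher. That library, marked above for its mitochondrial share, was the lowest of its group for 9 of the 10 genes. Injured WT replicate 2 was likewise the lowest of its group for 9 of the 10. Leaving out any other of the 6 libraries left the count at 0. In each of those fits limma called 0 of all genes tested, so these zeros say nothing particular about the 10. The sizes of the changes also depended on single libraries. Scd1 was at 1.92 without KO replicate 1 and at 3.85 without KO replicate 2, and Plin1 at 1.59 and 3.08. Over all 6 libraries left out in turn, the changes ran from 1.23 to 2.42 for Lep, 1.42 to 2.94 for Adipoq and 1.07 to 2.50 for Cidec. The median of the 10 was 0.80 without WT replicate 2 and 2.001 without KO replicate 2.

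Injured Lep was at 0.900, 0.0749 and 2.60 RPM in the WT libraries, the middle value resting on 2 reads, and at 7.76, 1.38 and 11.4 RPM in KO. Only KO replicate 2 overlapped with WT, and the change was 1.71 (SE 0.69, limma adjusted p = 0.464). Adipoq was at 17.8, 3.97 and 34.4 RPM in the WT libraries and at 172, 24.4 and 74.1 RPM in KO, a change of 2.21 (SE 0.89, limma adjusted p = 0.463). Retn at 12.2, 3.59 and 22.1 RPM in the WT libraries and 40.0, 9.35 and 19.2 RPM in KO, and Cfd at 272, 45.2 and 302 RPM in the WT libraries and 769, 210.3 and 283 RPM in KO, overlapped more widely. In both, KO replicate 1 alone exceeded the highest WT library. Their changes were 0.87 (SE 0.69, limma adjusted p = 0.707) and 1.20 (SE 0.81, limma adjusted p = 0.65).

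Plin1 was at 10.7, 2.96 and 14.5 RPM in injured WT and at 110.3, 13.1 and 50.5 RPM in KO. KO replicates 1 and 3 were above all WT libraries and replicate 2 within their range, with a change of 2.27 (SE 0.81, limma adjusted p = 0.415). The same arrangement held for Cidec, at 21.9, 3.82 and 28.0 RPM in the WT libraries and 109.5, 21.7 and 61.5 RPM in KO, with a change of 1.87 (SE 0.81, limma adjusted p = 0.494). Scd1 followed it as well, at 173, 62.8 and 580.1 RPM in the WT libraries and 4319, 293 and 1677 RPM in KO, with a change of 2.79 (SE 1.12, limma adjusted p = 0.463). Fabp4 did not: at 919, 327 and 933 RPM in the WT libraries and 1823, 1505 and 896 RPM in KO, its low KO library was replicate 3. The change of Fabp4 was 1.04 (SE 0.47, limma adjusted p = 0.52).

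Plin4, at 154, 133 and 131 RPM in injured WT and 156, 111 and 149 RPM in KO, showed the narrowest spread of the 10. Car3 was at 3937, 2767 and 2992 RPM in the WT libraries and 2692, 568 and 2445 RPM in KO. It was the 1 gene of the 10 whose injured groups did not overlap, with KO lower, as for 8.63% of all genes tested, and none of the 10 had all KO libraries above WT, which 8.29% of genes had. Its change was -1.04 (SE 0.59, limma adjusted p = 0.587).

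**Figure D2:**
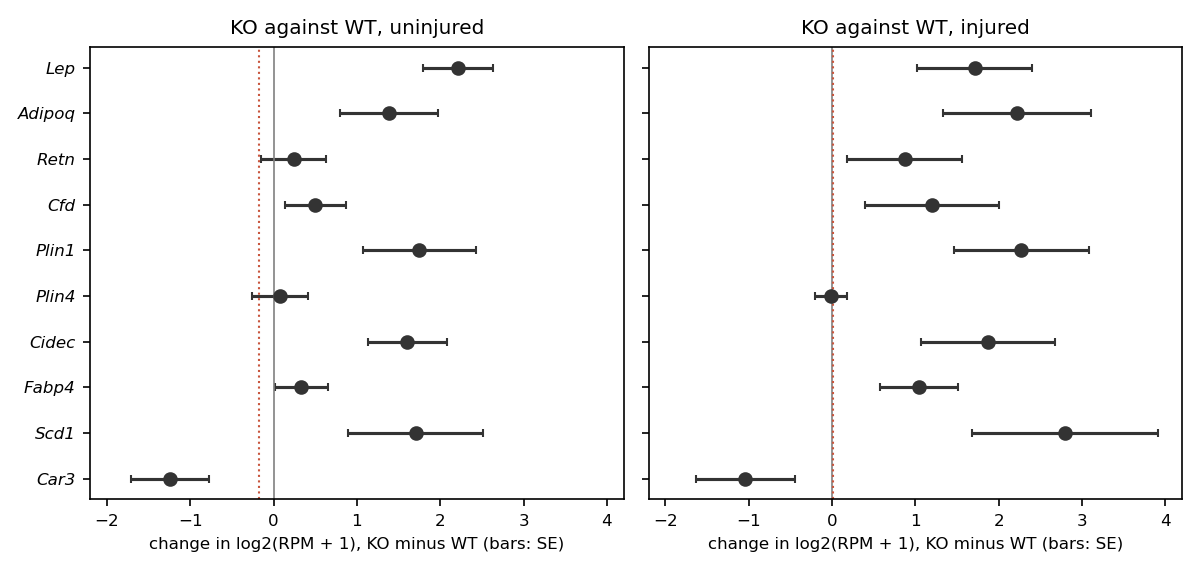
Change of each gene in log2(RPM + 1), KO minus WT, in uninjured (left) and injured muscle (right), with bars of 1 SE from limma on 3 against 3 libraries. The dotted line is the median of all genes tested (-0.18 and 0.01). Car3 lies to the left of 0 in both panels, and Plin4 within 1 SE of 0.

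Injured and uninjured muscle were compared within each genotype, in a fit over all 12 libraries that shares libraries with the comparisons above. In WT, 9 of the 10 genes had lower estimates after injury (62.4% of all genes had higher ones), from -1.19 for Cfd to -0.18 for Lep, and Plin4 had a higher one, 0.38 (SE 0.29). limma called 0 of the 10, as it called 0% of 13337 genes, and 0 had an unadjusted p under 0.05 (0.832% of all genes higher, 0.457% lower). DESeq2 and edgeR also called 0. The median of the 10 was -0.79, against 0.09 for all genes. The injured libraries of Cfd all lay below the uninjured ones, as for 2.54% of genes, and those of Plin4 all above, as for 7.48%. Injured WT replicate 2 weighed on most of these estimates. Without it the median of the 10 was -0.21, with 7 estimates below 0, and Cfd was at -0.31, Adipoq at -0.28 and Scd1 at -0.33, against -1.19, -1.07 and -1.10 with it. Without uninjured WT replicate 3 the median was -0.33.

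In KO the median injury change was -0.18, against 0.29 for all genes, with 9 of the 10 estimates below 0, while 80.9% of all genes had one above 0. limma called 0 of the 10 and 0% of all genes, 0 of the 10 had an unadjusted p under 0.05 (3.41% of all genes higher, 0.0975% lower), and DESeq2 and edgeR called 0. For none of the 10 did the injured and uninjured KO libraries separate, as they did for 6.12% of genes with injured higher and 0.622% with injured lower. Upper quartile and TMM scaling moved the median of all genes from 0.29 to 0.05, so the estimates near 0 had no fixed sign: Plin4 was at 0.29 as deposited and below 0 under both scalings. The largest negative estimates were those of Lep, -0.68 (SE 0.59), and Cidec, -0.52 (SE 0.70). Without injured KO replicate 2 the median of the 10 was 0.27, with 8 estimates above 0, and without injured KO replicate 1 it was -0.89. Leaving out an uninjured KO library gave medians of 0.03, -0.75 and -0.17 for replicates 1, 2 and 3.

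Whether injury acted differently in the genotypes was tested by the interaction term, the injury change in KO minus that in WT. limma called 0 of the 10 and 0% of all genes, 0 of the 10 had an unadjusted p under 0.05 (1.3% of all genes above 0, 0.262% below), and DESeq2 and edgeR called 0. Estimates were above 0 for 8 of the 10, against 68.1% of all genes, from 1.09 (SE 1.50) for Scd1 to -0.50 (SE 0.83) for Lep. Without injured WT replicate 2 the median of the 10 was -0.04, with 4 above 0, and without injured KO replicate 1 it was -0.02, with 5 above 0. The SEs ran from 0.41 for Plin4 to 1.50 for Scd1, so only large differences could have been detected.

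Across the 12 libraries 8 of the genes varied together. Correlated in log2(RPM + 1) with the mean of the other 9, Adipoq had a Pearson r of 0.99, Scd1 0.956, Cidec 0.952, Plin1 0.941, Retn 0.875, Cfd 0.826, Lep 0.768 and Fabp4 0.719, while Plin4 had 0.25 and Car3 -0.03. These are descriptions over 12 libraries of 4 groups, which share the group differences and each library's total. The mean log2(RPM + 1) of the 10 genes ran from 4.73 in injured WT replicate 2 to 8.07 in injured KO replicate 1. In uninjured muscle it spanned 6.08 to 7.15 in WT and 6.64 to 7.78 in KO, and in injured muscle 4.73 to 6.62 and 6.01 to 8.07, so the groups overlapped in both states. Within groups, KO injured replicate 1 was the highest library for 9 of the 10 genes and WT uninjured replicate 3 for 7.

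**Figure D3:**
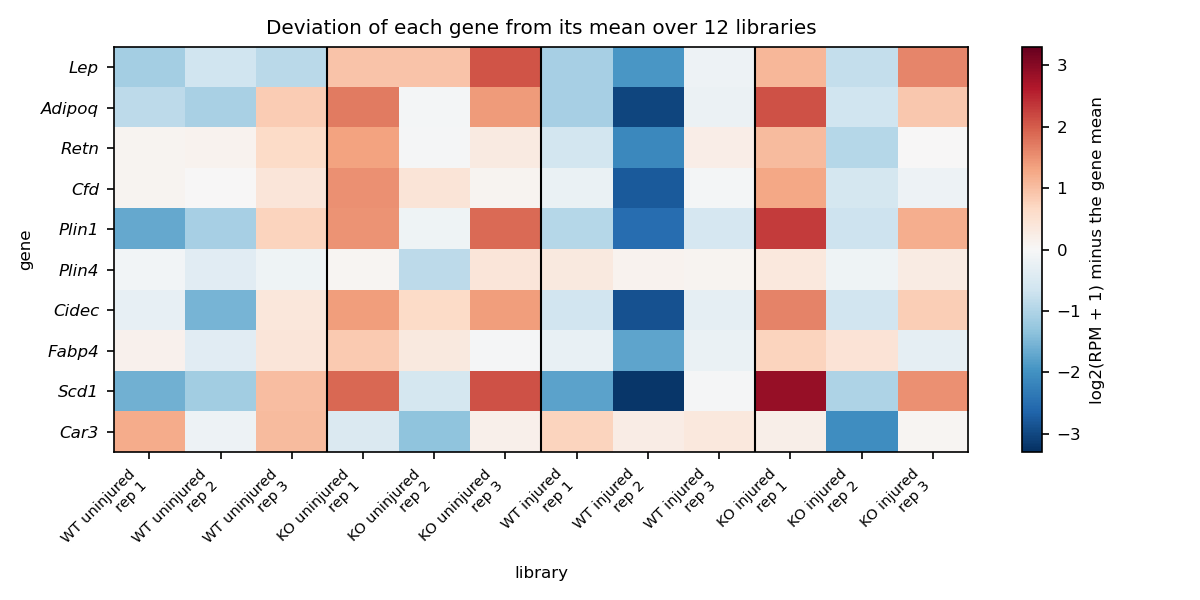
Deviation of each gene from its own mean over the 12 libraries, in log2(RPM + 1) (color scale, red higher, blue lower), 1 column per library with lines between the groups. The columns of injured WT replicate 2 and injured KO replicate 1 have 1 color for most genes, and the rows of Plin4 and Car3 do not follow the others.

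Set against Adipoq within each library, the other 9 genes covered a range of differences. The log2 ratio of Plin1 to Adipoq differed between KO and WT means by 0.43 in uninjured and 0.10 in injured muscle, and that of Cidec by 0.24 and -0.35. The ratio of Scd1 to Adipoq differed by 0.29 and 0.47, and that of Lep by 1.53 and 0.81. Fabp4 had -1.08 and -1.29 and Plin4 -1.34 and -2.35. For none of these 6 genes were the KO and WT ratios without overlap. The ratio of Retn to Adipoq was lower in KO by group means, by -1.17 in uninjured and -1.37 in injured muscle, and that of Cfd by -0.91 and -1.13. In injured muscle every KO library lay below every WT library for Retn and for Cfd. For Car3 the KO libraries lay below WT in both states, by -2.66 and -3.38. With 3 libraries against 3 the smallest two-sided exact permutation p is 0.1, which these non-overlapping ratios had, so none of the 9 ratios in either state could pass 0.05. The share of all genes with such ratios was not computed. Adipoq had higher estimates in KO (1.38 and 2.21), so a gene at the same level in both genotypes has a lower ratio in KO.

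The 10 other genes whose levels were most like the mean of the fat cell genes over the 12 libraries were A530016L24Rik (r = 0.977), Cdo1 (0.977), Agpat2 (0.974), Fasn (0.972), Hp (0.964), Cidea (0.963), Arxes1 (0.962), Acp5 (0.96), Cebpa (0.96) and Lipe (0.957). Agpat2 makes the precursor of triglyceride, Fasn is fatty acid synthase, Lipe is hormone-sensitive lipase and Cidea a lipid droplet protein. Fasn was at 94.5, 143 and 362 RPM in uninjured WT and 955, 155 and 732 RPM in KO, with the same low KO replicate 2 as Scd1. Hp, haptoglobin, was at 11.5, 9.57 and 26.6 RPM in the WT libraries and 41.2, 25.4 and 38.3 RPM in KO. No one of these 10 genes passed the limma test in either state, and their adjusted p-values lay between 0.175 and 0.65.

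Further genes of fat cells and of lipid metabolism were read from lists. For comparison, 36.8% of all genes had an estimate above 0 in uninjured and 52% in injured muscle. With an unadjusted p under 0.05, 3.53% were higher and 10.7% lower in uninjured, and 5.06% and 5.26% in injured muscle. In uninjured muscle 6.2% had every KO library above WT. Of 15 other mature adipocyte genes tested, limma called 0 in either state. With an unadjusted p under 0.05 it had 6 higher and 0 lower in uninjured and again 6 and 0 in injured muscle, and the medians were 0.68 and 0.99. DESeq2 called 4 of them higher in uninjured muscle (Agpat2, Gpd1, Lipe, Tusc5) and Cd36 in injured muscle, and edgeR called 0. Tusc5, which acts in glucose transporter trafficking of fat cells, was at 4.06, 2.66 and 19.2 RPM in uninjured WT and 21.2, 23.5 and 30.3 RPM in KO, all above WT (change 1.83, SE 0.58, limma adjusted p = 0.211). Lpl, lipoprotein lipase, which muscle fibres also make, had the lowest change of the list, -0.17 (SE 0.36).

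Of 10 other adipokine genes, limma called 0, 1 in uninjured and 2 in injured muscle were higher by unadjusted p under 0.05, and the medians were 0.09 and 0.43. Rbp4, retinol binding protein, was the gene of the list with the highest change. It was at 3.35, 0.532 and 7.28 RPM in uninjured WT and 49.3, 18.8 and 33.5 RPM in KO, and at 2.48, 1.39 and 5.55 RPM in injured WT and 69.5, 8.69 and 24.5 RPM in KO. In both states every KO library was above every WT library, as for 2.13% of all genes (changes 3.10, SE 0.61, and 2.78, SE 0.72, limma adjusted p = 0.0761 and 0.278). edgeR and DESeq2 called Rbp4 higher in uninjured muscle, DESeq2 also in injured muscle, and the authors' deposited table had it under 0.05 in both. Agt, angiotensinogen, had the lowest change, -0.71 (SE 0.38). Of 9 adipokine receptor genes, limma and edgeR called 0 in either state and 0 had an unadjusted p under 0.05, with medians of 0.13 and 0.21, and DESeq2 called Adipor2, an adiponectin receptor, higher in uninjured muscle (change 0.83, SE 0.46). Insr, the insulin receptor gene, had the lowest change, -0.54 (SE 0.31). The leptin receptor gene Lepr did not exceed 2.51 RPM in any library.

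The 13 adipogenic transcription factors had estimates in both directions: 3 were higher and 10 lower in uninjured muscle, with a median of -0.53. limma and edgeR called 0 in either state, with 2 higher and 2 lower in uninjured and 1 higher and 2 lower in injured muscle at an unadjusted p under 0.05. Pparg had the highest change, 1.46 (SE 0.41, limma adjusted p = 0.175) and 2.04 (SE 0.40, adjusted p = 0.162). Its levels were 5.50, 3.19 and 7.74 RPM in uninjured WT against 20.5, 10.5 and 18.9 RPM in KO, and 3.90, 1.98 and 4.17 RPM in injured WT against 29.4, 10.9 and 13.4 RPM in KO. KO lay above WT with no overlap in both states, as for 2.13% of all genes. DESeq2 called Pparg higher in both and Rxra, the partner with which Pparg binds DNA, in uninjured muscle. Mlxipl, which encodes the glucose-sensing factor ChREBP, had the lowest, -1.21 (SE 0.27, limma adjusted p = 0.101), and DESeq2 called it lower in uninjured muscle.

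Among 11 further lipid droplet and lipolysis genes limma and edgeR called 0 in both states, 3 were higher with an unadjusted p under 0.05 in uninjured muscle and 1 was higher and 1 lower in injured muscle, and DESeq2 called 4 (Cidea, Mgll, Plin2, Pnpla2) and 0. Cidea was at 6.66, 7.45 and 34.2 RPM in uninjured WT and 67.6, 32.7 and 73.3 RPM in KO (change 2.08, SE 0.59, limma adjusted p = 0.175). Plin3 had the lowest change, -0.44 (SE 0.28), and the medians were 0.49 and 0.39. Of 14 genes of fatty acid and triglyceride synthesis limma and edgeR called 0, with 2 and 1 higher at an unadjusted p under 0.05 in the 2 states, 11 and 14 estimates above 0, and medians of 0.35 and 0.52. Dgat2, which completes triglyceride, was at 11.7, 18.1 and 43.4 RPM in uninjured WT and 134.9, 46.2 and 138.9 RPM in KO, all above WT (change 2.13, SE 0.55, limma adjusted p = 0.149), and DESeq2 called it higher in both states and Fasn and Thrsp, a regulator of fat synthesis, in uninjured muscle. Gpam had the lowest change, -0.55 (SE 0.90).

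The families of Fabp4 and Car3 were read as well. Of 5 other fatty acid binding protein genes only Fabp3 and Fabp5 passed the filter, with changes of 0.43 (SE 0.54) and -0.29 (SE 0.49) in uninjured muscle, and no tool called either one in either state. Neither had an unadjusted p under 0.05. Of 7 other carbonic anhydrase genes limma and edgeR called 0, with 1 lower in uninjured and 1 higher in injured muscle at an unadjusted p under 0.05. Car8, a family member without enzyme activity, was the lower one, at 14.1, 13.8 and 26.5 RPM in uninjured WT and 1.64, 5.04 and 2.17 RPM in KO (change -2.31, SE 0.44, limma adjusted p = 0.0675), and DESeq2 called it. Every KO library of Car8 lay below every WT library there, as for 15.5% of all genes tested. In injured muscle, Car8 was at 14.6 RPM in KO replicate 2 against 1.71 and 2.43 RPM in the other KO libraries. Car5b, a mitochondrial family member, had the highest change, 0.84 (SE 0.47).

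Brown fat genes were read too, from a list that shares Cidea with the lipid droplet list. Ucp1, the uncoupling protein that marks thermogenic fat cells, was at 4.31, 4.79 and 25.5 RPM in uninjured WT and 30.3, 42.8 and 103.6 RPM in KO, all above WT (change 2.49, SE 0.66, limma adjusted p = 0.154). In injured muscle it was at 22.1, 0.786 and 10.3 RPM in the WT libraries and 56.4, 13.8 and 51.4 RPM in KO, which overlapped (change 2.19, SE 0.97, limma adjusted p = 0.513). Of 7 brown fat genes limma and edgeR called 0, with 2 higher at an unadjusted p under 0.05 in uninjured and 1 lower in injured muscle, and DESeq2 called Ucp1 and Cidea in uninjured muscle. Of the 7 genes, 5 had estimates above 0 in uninjured and 3 in injured muscle, with medians of 0.54 and -0.13. Cox7a1, which muscle fibres express as well, had the lowest change, -0.57 (SE 0.31).

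**Figure D4:**
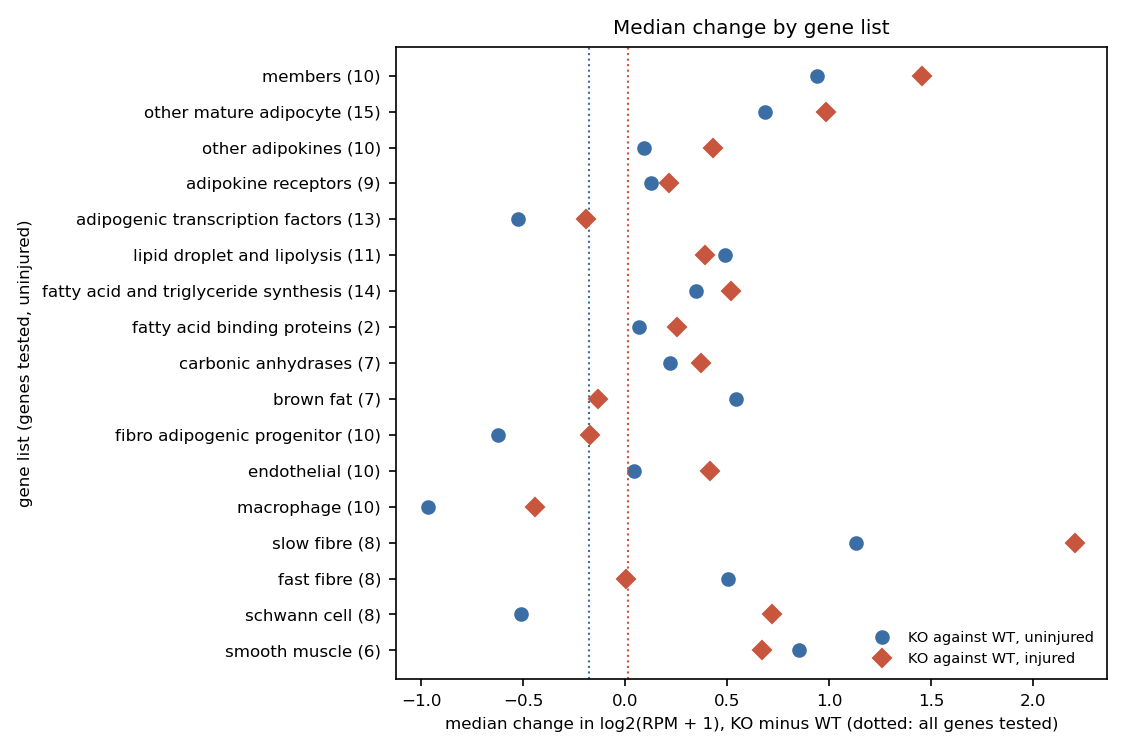
Median change in log2(RPM + 1), KO minus WT, of each gene list in uninjured (circles) and injured muscle (diamonds), with the number of genes tested in parentheses and dotted lines at the medians of all genes (-0.18 and 0.01). The 10 fat cell genes (top) stand at 0.94 and 1.46, the slow fibre genes at 1.13 and 2.21, and macrophage genes at -0.97 and -0.44.

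Markers of other cell types were examined in the same libraries. All 8 slow fibre genes had higher estimates in KO in both states, 6 and 7 at an unadjusted p under 0.05, and medians of 1.13 and 2.21. limma called 0 in either state, edgeR called Myh7 in uninjured muscle and DESeq2 called 6 in each state (Myh7, Myl2, Tnnc1, Tnni1, Tnnt1 and Tpm3). Myl3 had the lowest change, 0.10 (SE 0.40). Their summed level was 1377 to 1850 RPM in uninjured WT, 1881 to 4157 RPM in uninjured KO, 389 to 1564 RPM in injured WT and 1816 to 6548 RPM in injured KO. The lowest and the highest sums were those of injured WT replicate 2 and injured KO replicate 1, the libraries with the lowest and the highest mean log2(RPM + 1) of the 10 fat cell genes. By summed RPM, of which Car3, Fabp4 and Scd1 make up most, the fat cell genes were lowest in injured KO replicate 2, at 2758 RPM, and highest in injured KO replicate 1, at 10199 RPM. Myh7, the slow myosin heavy chain, was at 134, 119 and 102 RPM in uninjured WT and 496, 249 and 661 RPM in KO (change 1.88, SE 0.36, limma adjusted p = 0.0694). No slow fibre gene was at 0 in any library, and their part in the results was not tested.

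Of 10 fibro-adipogenic progenitor genes 7 had lower estimates in each state, while 36.8% and 52% of all genes had one above 0. With an unadjusted p under 0.05, 2 were lower in uninjured muscle (10.7% of all genes). In injured muscle 1 was lower and 1 higher (5.26% and 5.06% of all genes). limma and edgeR called 0 of the progenitor genes, and their medians were -0.62 and -0.17. Pdgfra, their defining receptor, was at 24.5, 15.4 and 29.9 RPM in uninjured WT and 10.7, 2.83 and 15.2 RPM in KO (change -1.39, SE 0.53, limma adjusted p = 0.285). In injured muscle its change was -0.65 (SE 0.19, limma adjusted p = 0.333). DESeq2 called Pdgfra lower there, as it called 217 of 12625 genes. Dlk1 had the highest change, 0.67 (SE 0.45). All 10 macrophage genes had lower estimates in both states, with 5 and 3 at an unadjusted p under 0.05 and none called by limma, edgeR or DESeq2. Their sums were 136 to 261 RPM in uninjured WT and 76.0 to 126.7 RPM in uninjured KO, and their changes ran from -1.11 (SE 0.47) for Cd68 to -0.31 (SE 0.35) for Csf1r. Endothelial genes, which matter for Fabp4, had medians of 0.05 and 0.42 and sums of 409 to 498 and 393 to 485 RPM in uninjured WT and KO. In injured muscle they were at 273 to 506 RPM in the WT libraries and 393 to 956 RPM in KO, with 0 and 1 of 10 higher at an unadjusted p under 0.05 in the 2 states and 0 called by any of the tools. Tie1 had the highest change, 0.37 (SE 0.26), and Egfl7 the lowest, -0.41 (SE 0.42), in uninjured muscle. KO replicate 2 held the highest injured level of Tie1 and Egfl7, 86.3 and 239 RPM, and lay between the other two KO libraries for Fabp4 while it was the lowest of them for the other 9 genes. This is 1 library, and the part of endothelial RNA in the Fabp4 levels was not tested.

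Fast fibre genes had medians of 0.50 and 0.00, with 1 of 8 higher at an unadjusted p under 0.05 in uninjured and 0 in injured muscle, 0 called by limma or edgeR, and Actn3 and Tnnc2 called by DESeq2 in uninjured muscle. Their changes in uninjured muscle ran from 0.03 (SE 0.32) for Pvalb to 1.17 (SE 0.58) for Tnnc2. Schwann cell genes had medians of -0.51 and 0.72, and in injured muscle limma, edgeR and DESeq2 called 0 of the 8 and 0 had an unadjusted p under 0.05. They summed to 1879 RPM in injured KO replicate 2, against 350.2 and 512 RPM in the other injured KO libraries. Smooth muscle genes, among them Des, which muscle fibres make as well, had medians of 0.85 and 0.67, with 2 and 3 of 6 higher at an unadjusted p under 0.05, 0 called by limma or edgeR and Des called by DESeq2 in uninjured muscle, where it had the highest change, 0.99 (SE 0.24), and Rgs5 the lowest, -0.46 (SE 0.25). Of 6 skin and hair genes 1 (Krt10, change -0.24, SE 0.35) passed the filter, and the 6 summed to 3.06 to 5.85 RPM.

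Binding of Myf6 was measured by ChIP-seq in another system, primary myotubes grown from adult satellite cells, with a Flag antibody and 1 control library and no replicate. The authors' list holds 12898 peaks in mm10 coordinates. Of the 10 genes, 3 had a peak summit inside or within 10 kb, against 36.6% of 11492 protein-coding genes tested, and 8 had one within 50 kb, against 61.3%. A summit lay inside Adipoq (peak at chr16:23151608-23151734, fold enrichment 7.36, the authors' value) and another inside Plin4 (chr17:56100940-56101107, fold enrichment 9.11), which had 3 peaks within 10 kb. Car3 had a summit 5505 bases away (chr3:14857981-14858135, fold enrichment 5.02). The nearest summit to Scd1 was 16.6 kb away, to Lep 28.1 kb, to Plin1 37.0 kb, to Cfd 41.9 kb and to Cidec 45.5 kb. Fabp4 and Retn had theirs 179 and 191 kb away. The E-box letters printed above for Adipoq lie upstream of the gene, outside its peak.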

How the data were processed

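Gene expression was read from 2 tables that the authors deposited (uninjured, injured), with a value per gene and library in RPM. Per the labels, total RNA was extracted with Trizol and made into TruSeq RNA v2 libraries. HISAT2 2.1.0, featureCounts, SAMtools and DESeq2 are named in the submitters' processing notes for the series, as are Bowtie 1.1.0, MACS2 2.1.0.20140616 and the builds mm10 and GRCm38.p5. Strand use and the treatment of reads with several matches are not given in the sources used here, so reads shared with near-identical genes may be split. The authors' deposited tables also hold for each gene a log2 fold change with its error and p- and q-values (p-value, q-value), with the sign WT over KO, turned here to KO over WT. The deposited peak list, made by the authors, gives the signal (pileup) at the summit, the fold enrichment ratio and −log10 of p and q per peak, per the file headers. Gene positions came from a GRCm38.p6 table, the build of mm10.

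Whole reads were recovered from RPM, to within 0.1 read for 100% of the testable values. The totals per library give the depth, and the floor is 3 reads, which covers counting error only. The fits used limma 3.58.1 in R 4.3.3 with a mean-variance trend on log2(RPM + 1), for genes reaching 1 RPM in 3 or more of the fitted libraries, two-sided, adjusted by Benjamini-Hochberg over all genes. KO and WT were compared on their own 6 libraries, injury and the interaction on all 12, whose 2 tables were scaled library by library. DESeq2 1.42.0 and edgeR 4.0.16 ran on the recovered reads as alternatives. Other alternatives were scalings, filters, a pseudocount of 0.1, a replicate block, all 12 libraries in 1 fit, the authors' q-values and each library left out. The scripts were checked on simulated data.

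The 10 genes and the gene lists were chosen with earlier results of these data known. All 10 genes are named in every comparison. From each other list except that of Schwann cells, the genes with the highest and lowest change in uninjured muscle and those that edgeR or DESeq2 called are named, and 10 further genes by their correlation with the mean of the 10. Genes named for a call of DESeq2 or for Lepr and Lipe were picked after their values were seen. Replicates are the samples that the titles number. Nothing says that the replicates are separate animals. In the descriptions, uninjured and injured libraries share numbers and differ in the letter, L or R. The labels do not say what numbers or letters stand for, so p-values measure the spread between these libraries. Same-numbered uninjured WT and KO libraries deviated together only in part (lowest r 0.0368) and have different numbers in the descriptions. Same-numbered injured WT and KO libraries deviated in opposite directions (mean r -0.452, from -0.603 to -0.300, against a mean of 0.202 for other pairs). Same-numbered uninjured and injured WT libraries did not deviate together (mean r 0.021, lowest -0.231). Those of KO did in part (mean r 0.385, from 0.024 to 0.628, against a mean of -0.192 for other pairs). These values do not settle the pairing of injury libraries. The reported fits did not use the numbers as pairs, and the replicate block was an alternative. The calls of the Schwann cell list in uninjured muscle are not reported here.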

Additional observations from a re-analysis of the deposited data

How the results depend on the processing

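In uninjured muscle limma called 0 of the 10 genes. Upper quartile scaling, scaling to reads outside mitochondrial genes, TMM, and edgeR each called 1 (Lep). They called 47, 31, 56 and 30 of the 12460 genes higher, against 16 by limma. The authors' deposited q-values called 2 (Lep, Cidec), among 169 of 49585 genes called higher. DESeq2 called 5, among 341 of the 12460 genes called higher and 322 lower. The titles' numbers join WT and KO libraries whose description numbers differ. With the titles' numbers as a replicate block 6 were called, Adipoq, Cidec, Plin1, Scd1 and Lep higher and Car3 lower, among 181 higher and 571 lower of all genes, and the block changed no other count. The other settings, each library left out included, called 0. In injured muscle DESeq2 called 2, among 210 of all genes called higher and 217 lower. The authors' q-values called 1, among 124 genes called higher. Leaving out KO replicate 2 gave 5, among 1168 genes called higher and 1175 lower. Leaving out each other library gave 0, where limma called 0 of all genes. All settings called 0 for injury and the interaction.

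Estimates near 0 changed sign, none of them past the threshold. Scaling to reads outside mitochondrial genes turned Plin4 in uninjured muscle to -0.0775, its interaction to 0.0518 and the injury change of Scd1 in KO to 0.0260. The authors' value of Plin4 in injured muscle was 0.0180. The injury change of Lep in WT was 0.0708 with edgeR, and that of Scd1 in KO was 0.136 with DESeq2 and 0.138 with edgeR. That of Plin4 in KO was -0.00279 and -0.00464 under upper quartile and TMM scaling, -0.0188 with DESeq2 and -0.0110 with edgeR, and the interaction of Car3 was -0.0159 under TMM scaling. The cause was not tested. Leaving out single libraries turned the sign of 23 results. For KO against WT the ranges were, in uninjured muscle, -0.16 to 0.52 for Retn and -0.19 to 0.44 for Plin4, and in injured muscle -0.11 to 0.14 for Plin4. For injury in WT they were -0.62 to 0.25 for Lep, -1.15 to 0.0524 for Plin1, -1.32 to 0.0159 for Cidec and -0.69 to 0.00623 for Car3. For injury in KO they were -1.16 to 0.0336 for Lep, -0.90 to 0.48 for Adipoq, -0.99 to 0.00584 for Retn, -0.81 to 0.68 for Plin1, -0.0758 to 0.55 for Plin4, -0.30 to 0.21 for Fabp4, -1.04 to 0.10 for Cidec, -0.89 to 1.05 for Scd1 and -0.44 to 0.68 for Car3. For the interaction they were -0.98 to 0.21 for Lep, -0.0122 to 1.15 for Retn, -0.18 to 1.17 for Cfd, -0.18 to 1.33 for Plin1, -0.46 to 0.17 for Plin4, -0.54 to 0.89 for Cidec and -0.19 to 0.93 for Car3. Lep rested on the fewest reads, 3 in uninjured WT replicate 2 and 2 in injured WT replicate 2. The depth of these libraries was 1880087 and 26711470 reads, so only uninjured WT replicate 2 was shallow. RPM scaling ties every value to the rest of its library, including the mitochondrial share.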
